A study of Mus musculus with 6 samples.

Results

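The endoplasmic reticulum (ER) chaperones and the genes of the unfolded protein response were compared between cardiac fibroblasts with and without TGFβ, a factor known to drive them towards myofibroblasts. The 33 genes were taken by symbol from the table of counts per gene, where each was found once among 25140 genes. They were placed in 4 arms by role, with 14 folding chaperones, 6 genes of ER-associated degradation, 4 genes for the stress sensors and XBP1, and 9 genes of the ATF4-CHOP arm. Polyadenylated mRNA was sequenced from primary cardiac fibroblasts at passage 1, from the heart of adult C57BL/6 mice by the sample labels. The 3 TGFβ libraries came from cells given TGFβ at 10 ng/ml for 24 h, and the 3 vehicle libraries from cells without it. Both groups had been moved from 10% to 1% FBS for 16 h beforehand in 25 mM glucose medium, and were kept at 1% FBS during treatment. The paper's methods give 24 h of low serum beforehand. The study's figure legends and the text of its results name embryonic fibroblasts instead of cardiac ones, and no genetic change is given for either group.

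Proteins bound for secretion fold in the ER with the help of BiP, GRP94, the calreticulin and calnexin lectins and disulfide isomerases, and fibroblasts that secrete collagen depend on this machinery. When unfolded proteins accumulate, the sensors ATF6, IRE1 and PERK raise the supply of chaperones, the removal of misfolded proteins through ER-associated degradation and, through the translation factor eIF2α, the transcription factor ATF4. ATF4 drives genes for amino acid supply and also CHOP, a factor tied to cell death under lasting stress. The question put to the data is which of these arms differed in mRNA between vehicle and TGFβ.

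The deposited values are whole-number reads per gene, with totals of 27851677 to 31072338 per library. The columns carry no replicate number, so the vehicle libraries are named A, B and C here and the TGFβ libraries D, E and F, in table order. Levels are given as CPM, a gene's counts relative to its library's sum over the genes tested, after TMM scaling. By this, 33979 counts of *Hspa5* in library A are 1068 CPM. A gene was called higher or lower where the adjusted p of edgeR's quasi-likelihood test was under 0.05. Of 14334 genes tested, 40.7% were called, 20.5% higher and 20.1% lower, and their median log2 fold change was -0.0013. The groups did not overlap in 53.3% of the genes tested. Fibroblast markers summed to between 50619 and 63649 CPM in every library, with 6 of 9 called lower (median log2 fold change -0.37). Endothelial markers summed to 407 to 626 CPM with vehicle and 377 to 512 CPM with TGFβ, and 0 of 6 were called. Leukocyte markers summed to 36.7 to 49.95 CPM and 34.8 to 50.02 CPM, with 0 of 4 tested called, and the B cell marker *Cd79a* was at 0 in 3 vehicle libraries and in library E. Cardiomyocyte markers, nearly all of them reads of *Tnnt2*, summed to 38.5 to 59.6 CPM and 27.4 to 40.6 CPM, with 0 of 3 tested called. The part of these cells in the results was not tested, and in bulk RNA a change in cell makeup and a change per cell cannot be told apart.

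Of the 33 genes, 32 had enough counts to be tested. The genes were chosen with earlier results of these data known, so a share above that of all genes is not an independent result. 21 of the 32 (65.6%) were called higher with TGFβ and 0 lower, beside 20.5% and 20.1% of all genes tested. The median log2 fold change was 0.26, with a range from -0.13 to 0.79. In 24 of the 32 every TGFβ library was above every vehicle library, in 0 every one was below, and in the rest the groups overlapped, beside 53.3% of all genes without overlap. The changes were small, and 3 genes (*Chac1*, *Asns* and *Hyou1*) rose by a log2 fold change of at least 0.5. Summed over the 33 genes, the level went from 8964 ± 189 to 11255 ± 216 CPM (SD, n = 3 each).

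**Figure D1:**
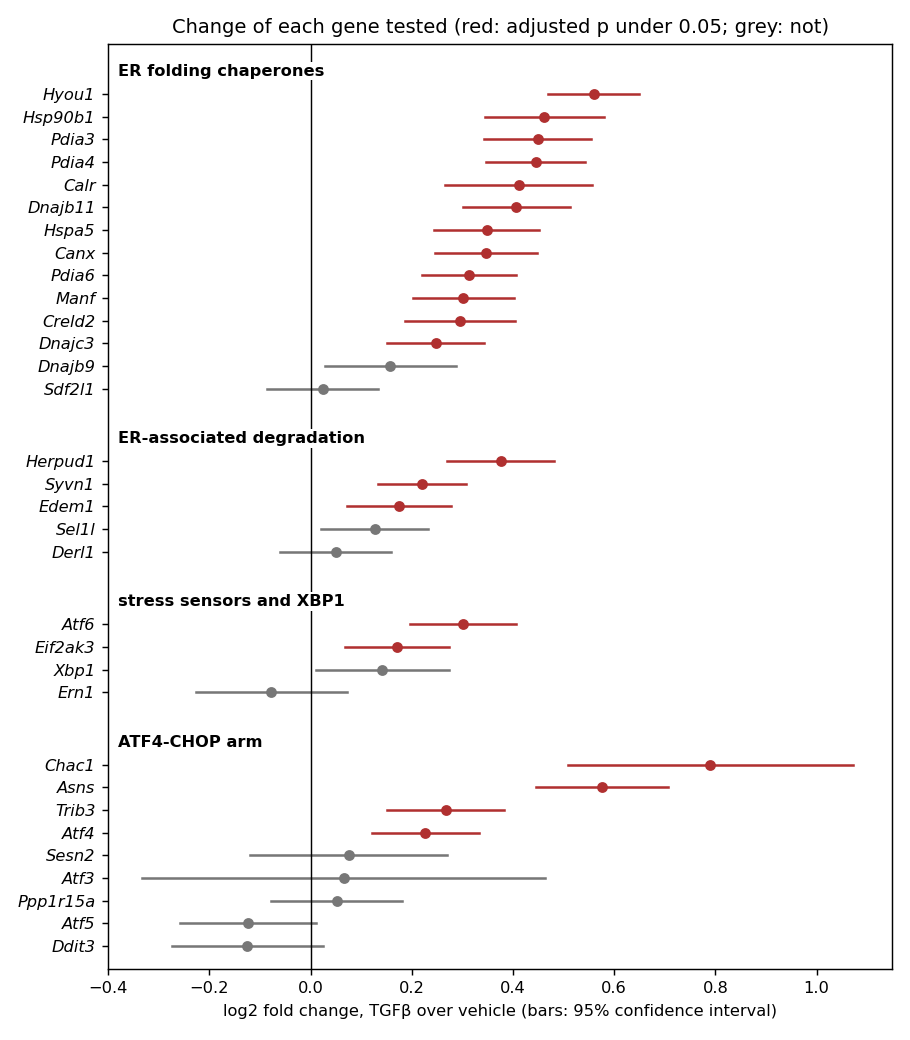
Log2 fold change of TGFβ over vehicle (horizontal axis) for the 32 genes tested, grouped by arm, with 95% confidence intervals from edgeR, 3 libraries per group. The 12 red folding chaperones lie between 0.25 and 0.56, while 5 of 9 genes of the ATF4-CHOP arm are grey and lie around 0.

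Promoter sequences are shown first for the folding chaperones, because most of these genes rose together and many carry the letters of the ER stress element, the sequence through which ATF6 and XBP1 are known to act. The element was searched as CCAAT and CCACG with 9 bases between them, on both strands, in RefSeq windows (GRCm38.p6) from 250 bases before to 50 after each start. No other spacing or order of these blocks was searched, and no differing letter within a block was allowed. A gene without a match may thus hold another form, and a gene with a match may hold further ones. A window was at hand for 29 of the 33 genes, 30 windows in all with 2 for *Atf5*, and not for *Atf6*, *Derl1*, *Hyou1* and *Manf*. The 33 genes were chosen for their role in the unfolded protein response, in which the element is known to act. A share above that of all promoters is therefore not an independent result. The element was present in 9 of the 30 windows (30.0%), beside 39 of all 32851 promoters (0.119%). It was found in 7 of 12 windows of folding chaperones, 2 of 5 of ER-associated degradation, 0 of 3 of the sensors and XBP1 and 0 of 10 of the ATF4-CHOP arm. Each match is printed on the strand that reads CCAAT first, with these blocks in capitals:
*Hspa5* (chr2:34772025-34772043, plus strand): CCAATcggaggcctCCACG
*Calr* (chr8:84847075-84847093, plus strand): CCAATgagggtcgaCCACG
*Derl3* (chr10:75893242-75893260, minus strand): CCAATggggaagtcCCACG
*Hsp90b1* (chr10:86705638-86705656, minus strand): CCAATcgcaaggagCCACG
*Hsp90b1* (chr10:86705533-86705551, plus strand): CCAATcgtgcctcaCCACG
*Canx* (chr11:50325800-50325818, minus strand): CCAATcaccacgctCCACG
*Pdia6* (chr12:17266491-17266509, plus strand): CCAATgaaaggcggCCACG
*Dnajc3* (chr14:118937827-118937845, plus strand): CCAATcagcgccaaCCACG
*Creld2* (chr15:88819520-88819538, minus strand): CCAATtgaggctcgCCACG
*Syvn1* (chr19:6046532-6046550, plus strand): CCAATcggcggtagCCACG

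All 10 matches lay upstream of the RefSeq start, the closest ending 26 bases before it in *Syvn1* and the farthest beginning 212 bases before it in *Hsp90b1*, which carries 2. The GENCODE span of *Hspa5* begins at 34771970, upstream of the RefSeq start, so that its match falls within that span. Among genes with a window, the element stood in 8 of 18 windows of genes called higher and in 0 of 11 windows of genes not called, and the remaining match was in *Derl3*, which had too few counts. Most windows of genes not called belong to the ATF4-CHOP arm or to the sensors and XBP1. Those arms held the element in 0 of 10 and 0 of 3 windows whatever the call, so call and arm are not separated in these counts. A link between element and call was not tested. The shorter block CCACG alone was in 23 of the 30 windows (76.7%) and in 32.8% of all promoters. The UPR element TGACGTGG was in 0 of the 30 windows and in 0.676% of all promoters. These matches describe letters in a window and do not show binding.

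The windows of *Hspa5* and *Hsp90b1*, which encode BiP and GRP94, are printed whole to show where the blocks sit, with the blocks in capitals, of which the second pair in *Hsp90b1* lies on the other strand:
*Hspa5* promoter (chr2:34771840-34772139, plus strand): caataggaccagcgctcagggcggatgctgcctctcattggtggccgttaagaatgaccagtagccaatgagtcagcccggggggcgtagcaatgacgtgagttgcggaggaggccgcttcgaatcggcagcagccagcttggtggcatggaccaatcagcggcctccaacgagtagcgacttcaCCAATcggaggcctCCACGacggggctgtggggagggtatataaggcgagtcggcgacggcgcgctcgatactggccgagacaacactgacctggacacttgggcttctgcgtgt
*Hsp90b1* promoter (chr10:86705395-86705694, minus strand): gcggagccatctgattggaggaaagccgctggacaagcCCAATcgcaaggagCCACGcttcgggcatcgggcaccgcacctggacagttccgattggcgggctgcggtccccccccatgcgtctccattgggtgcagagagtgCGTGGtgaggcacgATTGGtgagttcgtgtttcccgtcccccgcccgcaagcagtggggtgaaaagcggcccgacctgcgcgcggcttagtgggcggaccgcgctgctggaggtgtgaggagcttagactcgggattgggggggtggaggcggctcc

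A second set of sequences belongs to the ATF4-CHOP arm. The C/EBP-ATF element, the composite site at which ATF4 is known to pair with C/EBP factors, was searched as TGATGNAA on both strands. It was in 5 of the 30 windows (16.7%) and in 3.97% of all promoters, and 4 of the 5 were among the 10 windows of the ATF4-CHOP arm. 0 of 12 windows of folding chaperones held it. Genes of the ATF4-CHOP arm were likewise chosen for their tie to ATF4, so this excess is not an independent result. The match is in capitals, with 8 bases on either side:
*Atf3* (chr1:191183436-191183443, plus strand): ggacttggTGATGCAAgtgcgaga
*Chac1* (chr2:119351049-119351056, minus strand): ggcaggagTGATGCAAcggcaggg
*Trib3* (chr2:152344039-152344046, plus strand): cgcccggcTGATGTAAacctgagc
*Asns* (chr6:7693225-7693232, minus strand): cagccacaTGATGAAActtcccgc
*Herpud1* (chr8:94386317-94386324, minus strand): gtgcgggcTGATGCAAcccgccgt

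The match in *Trib3* lay 15 to 22 bases after the RefSeq start and the others upstream, between 16 bases before it in *Asns* and 193 in *Chac1*. The GENCODE span of *Trib3*, on the minus strand, begins at 152344032, so that its match lies upstream of that span. Those in *Asns* and *Atf3* fall within the GENCODE spans of these genes. Of the 5 genes, 4 were called higher and *Atf3* was not called. Called higher were 65.6% of the 32 genes tested here and 20.5% of all genes tested. The C/EBP-ATF element stood in 4 of 18 windows of genes called higher (22.2%) and in 1 of 11 windows of genes not called (9.09%). The 11 windows include both of *Atf5*. As 4 of the 5 matches lie in the ATF4-CHOP arm, call and arm are not separated in these counts either. A link between this element and the call was not tested. *Asns* and *Chac1*, the genes of this arm with the largest rise, have these windows, with the match in capitals, which in *Chac1* lies on the other strand and so reads TTGCATCA:
*Asns* promoter (chr6:7693160-7693459, minus strand): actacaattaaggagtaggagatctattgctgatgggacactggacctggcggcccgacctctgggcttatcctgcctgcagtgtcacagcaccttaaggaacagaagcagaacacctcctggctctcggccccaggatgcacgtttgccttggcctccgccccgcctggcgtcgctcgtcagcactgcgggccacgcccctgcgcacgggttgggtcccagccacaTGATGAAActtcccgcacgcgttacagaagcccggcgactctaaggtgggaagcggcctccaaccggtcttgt
*Chac1* promoter (chr2:119350992-119351291, plus strand): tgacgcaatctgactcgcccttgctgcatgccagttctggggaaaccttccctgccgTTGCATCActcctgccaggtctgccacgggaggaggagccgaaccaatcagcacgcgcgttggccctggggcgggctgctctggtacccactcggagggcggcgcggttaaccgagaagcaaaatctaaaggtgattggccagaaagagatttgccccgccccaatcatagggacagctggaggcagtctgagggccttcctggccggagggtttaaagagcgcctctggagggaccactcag

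**Figure D2:**
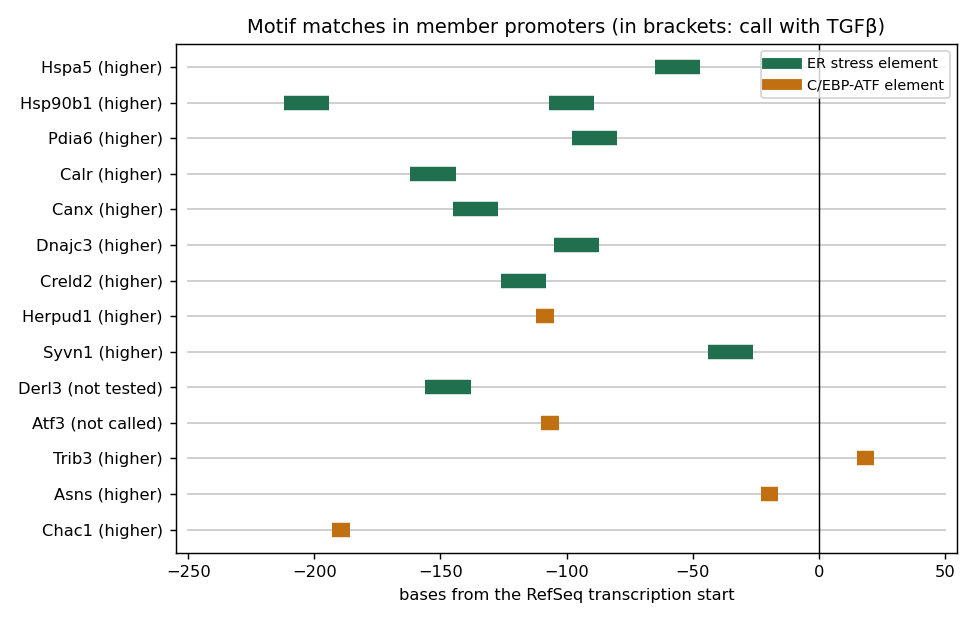
Positions of the ER stress element (green) and the C/EBP-ATF element (orange) in bases from the RefSeq start for the 14 genes with either, each named with its call. The green matches fall in folding chaperones and genes of ER-associated degradation, and 4 of the 5 orange ones in the ATF4-CHOP arm.

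Most folding chaperones rose. 12 of the 14 were called higher with TGFβ and 0 lower, beside 20.5% and 20.1% of all genes tested. Their median log2 fold change was 0.35, and the groups did not overlap in 13, beside 53.3% of all genes tested. Their summed level was 6560, 6431 and 6300 CPM in the vehicle libraries and 8643, 8534 and 8225 CPM in the TGFβ libraries, a ratio of 1.32. They took 0.641% to 0.672% of all counts with vehicle and 0.819% to 0.849% with TGFβ. The 12 calls held under each of the 13 other fits, and in the test itself all had an adjusted p under 0.01.

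*Hspa5* encodes BiP, the HSP70 of the ER that holds the sensors inactive until unfolded proteins draw it away. Its level was 1068, 1034 and 1046 CPM with vehicle and 1356, 1343 and 1308 CPM with TGFβ. Every TGFβ library stood above every vehicle library, with a log2 fold change of 0.35 (SE 0.04, adjusted p = 7.08e-04). For such a gene, the two-sided exact permutation test over the 6 libraries gives p = 0.1, the smallest that 3 against 3 allow. *Hsp90b1*, which encodes GRP94, the HSP90 of the ER, stood at 992, 976 and 942 CPM and at 1389, 1337 and 1282 CPM. Its rise was 0.46 on the log2 scale (SE 0.05, adjusted p = 3.51e-04).

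*Hyou1* encodes a nucleotide exchange factor of BiP and rose most among the folding chaperones. It was expressed at 235, 227 and 233 CPM with vehicle and 344, 345 and 336 CPM with TGFβ, a 1.47-fold change (log2 fold change 0.56, SE 0.04, adjusted p = 4.19e-05). Replicates of this gene differed by a coefficient of variation of 1.89% and 1.397%, far less than the gap between the groups. The confidence interval, 0.47 to 0.65, lay wholly above those of *Pdia6*, *Canx*, *Hspa5*, *Creld2*, *Manf*, *Dnajc3*, *Dnajb9* and *Sdf2l1*, although differences between genes were not tested.

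The lectin chaperones bind newly made glycoproteins. *Calr*, for calreticulin, was measured at 1363, 1333 and 1239 CPM with vehicle and 1816, 1782 and 1635 CPM with TGFβ, and its log2 fold change was 0.41 (SE 0.06, adjusted p = 0.00157). *Canx*, for the membrane-bound calnexin, was at 793, 795 and 782 CPM and at 1021, 1019 and 976 CPM, a rise of 0.35 on the log2 scale (SE 0.04, adjusted p = 6.42e-04). *Pdia3*, the disulfide isomerase that works with both lectins, went from 891 ± 22.9 to 1216 ± 23.8 CPM (SD, n = 3 each), with a log2 fold change of 0.45. Per kb of exon, *Calr* was the most abundant of the 33 genes with vehicle (455 CPM per kb, rank 50 of 14322 genes), followed by *Atf5* (330 CPM per kb), *Pdia3* (284), *Hspa5* (248) and *Hsp90b1* (241).

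Other disulfide isomerases rose as well. *Pdia4* had 240, 238 and 231 CPM with vehicle and 328, 327 and 311 CPM with TGFβ (log2 fold change 0.44, adjusted p = 1.74e-04). *Pdia6*, which also acts on IRE1, had 377, 373 and 378 CPM and 458, 465 and 479 CPM (log2 fold change 0.31, adjusted p = 7.02e-04). In both genes the lowest TGFβ library was well above the highest vehicle library.

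The J-domain partners of BiP were not all alike. *Dnajb11* was called higher, from 125 ± 6.12 to 165 ± 1.79 CPM (log2 fold change 0.41), and *Dnajc3*, whose product also restrains PERK, from 210 ± 6.92 to 249.04 ± 3.55 CPM (log2 fold change 0.25, SD and n = 3 for each). *Dnajb9*, a well-known target of XBP1, had 45.2, 42.8 and 44.5 CPM with vehicle and 45.7, 49.9 and 52.2 CPM with TGFβ. The groups did not overlap but library D stood next to vehicle, and the log2 fold change of 0.16 (95% confidence interval 0.03 to 0.29) had an adjusted p of 0.0558 from edgeR. Without library D that p was 0.0212.

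*Sdf2l1*, a partner of DNAJB11 that is strongly induced under acute ER stress, had the smallest change of the folding chaperones. Its level was 23.9, 23.8 and 25.0 CPM with vehicle and 24.4, 24.6 and 24.9 CPM with TGFβ, and the groups overlapped. The log2 fold change was 0.02, with a confidence interval of -0.09 to 0.13. *Creld2* and *Manf*, which encode further ER stress-inducible proteins, the latter secreted, rose from 35.5 ± 1.47 to 43.6 ± 1.11 CPM and from 136 ± 5.37 to 167 ± 2.99 CPM (SD, n = 3 each; log2 fold change 0.30 for both, adjusted p = 0.00194 and 0.00117 from edgeR). *Manf* shares 14 exon bases with *Rbm15b* on the same strand, which held 40.7% as many counts, so reads there are uncertain.

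**Figure D3:**
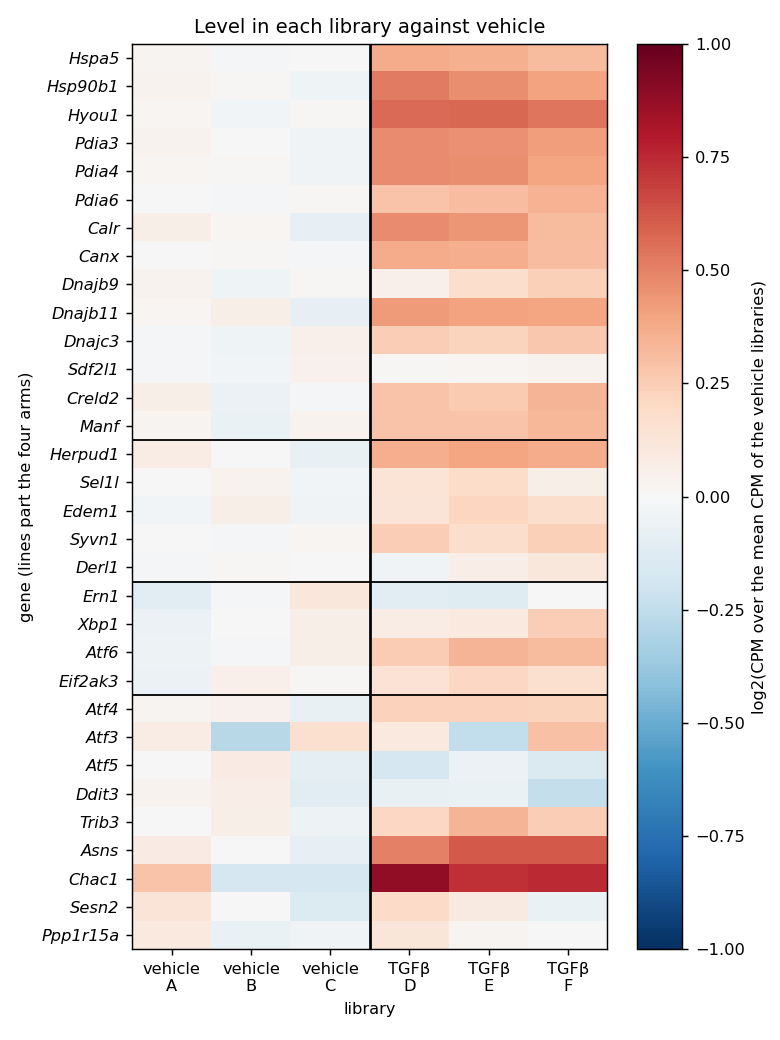
Level of each gene in each library as log2 of its CPM over the mean of the vehicle libraries (colour scale), for the 32 genes tested; horizontal lines part the arms. Most chaperone rows are red in D, E and F, with *Dnajb9* near vehicle in library D (45.7 CPM, vehicle mean 44.2 CPM). *Sdf2l1*, *Derl1*, *Ern1*, *Atf3*, *Atf5*, *Ddit3*, *Sesn2* and *Ppp1r15a* show no such block.

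In ER-associated degradation, 3 of the 5 genes tested were called higher and 0 lower, beside 20.5% and 20.1% of all genes tested, and the median log2 fold change was 0.17. *Herpud1*, a scaffold of the degradation complex, was at 109, 104 and 98.7 CPM with vehicle and 133, 136 and 134 CPM with TGFβ, with a log2 fold change of 0.38 (SE 0.05, adjusted p = 5.40e-04). *Syvn1*, the ubiquitin ligase HRD1, rose by less, from 56.2, 56.0 and 57.2 CPM to 67.0, 63.7 and 66.5 CPM (log2 fold change 0.22, adjusted p = 0.0028). It shares 91 exon bases with *Mrpl49* on the other strand, which held 26.0% as many counts. *Edem1*, which trims mannose from misfolded glycoproteins, had 127 ± 4.65 and 144 ± 4.33 CPM (SD, n = 3 each) and a log2 fold change of 0.17 (adjusted p = 0.0155). That call was lost without library A (adjusted p = 0.0520) or library E (0.0632) and without a scaling factor (0.0533), all from edgeR.

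*Sel1l*, the adaptor of HRD1, was at 284, 292 and 280 CPM with vehicle and 314, 324 and 298 CPM with TGFβ. The groups did not overlap, yet the log2 fold change of 0.13 (confidence interval 0.02 to 0.23) did not pass (adjusted p = 0.0596, and 0.0321 without library F). *Derl1*, a channel protein of the ER membrane, had a log2 fold change of 0.05 (confidence interval -0.06 to 0.16) with overlapping groups. *Derl3*, its relative in secretory cells, had 7, 6 and 3 counts with vehicle and 3, 3 and 2 with TGFβ, too few to test.

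Of the 4 genes for the sensors and XBP1, 2 were called higher and 0 lower, a share called near the 40.7% of all genes tested. *Atf6* encodes the sensor that is cut in the Golgi to become a transcription factor, and stood at 97.9, 101 and 106 CPM with vehicle and 121, 128 and 126 CPM with TGFβ. Its log2 fold change was 0.30 (SE 0.05, adjusted p = 0.00152). *Eif2ak3*, for PERK, had 40.6, 43.8 and 42.5 CPM and 46.8, 48.8 and 47.2 CPM, a log2 fold change of 0.17 (adjusted p = 0.0171). The *Eif2ak3* call was lost with DESeq2 (adjusted p = 0.0592), without a scaling factor (0.0595 from edgeR) and without library A (0.0584 from edgeR) or E (0.0678 from edgeR).

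*Ern1* encodes IRE1, which splices *Xbp1* mRNA, and had 45.4, 48.2 and 52.7 CPM with vehicle and 45.1, 44.8 and 48.8 CPM with TGFβ. The groups overlapped, with a log2 fold change of -0.08 (confidence interval -0.23 to 0.07). *Xbp1*, itself a target of the response, was at 128, 134 and 138 CPM and at 140, 143 and 158 CPM. Library F was the highest and the groups did not overlap, but the log2 fold change of 0.14 (confidence interval 0.01 to 0.27) had an adjusted p of 0.0816 from edgeR. Counts per gene do not show splicing of *Xbp1*, cleavage of ATF6 or phosphorylation of PERK.

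The ATF4-CHOP arm was divided. 4 of its 9 genes (44.4%) were called, near the 40.7% of all genes tested, and all 4 were higher, beside 20.5% of all genes. The median log2 fold change was 0.08. The groups were apart in 4, all with TGFβ above, a smaller share than the 53.3% of all genes. With library totals and no scaling factor, 6 were called, 4 higher and 2 lower. The 4 that rose were *Chac1*, *Asns*, *Trib3* and *Atf4*, and they were called in each of the 13 other fits.

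*Chac1*, an enzyme that breaks down glutathione, had the largest change of the 33 genes. Its counts were 933, 637 and 639 with vehicle and 1220, 1118 and 1152 with TGFβ, which is 29.3, 21.5 and 21.4 CPM against 44.6, 40.04 and 40.4 CPM. Library A stood above B and C, so that the vehicle libraries varied by 18.9%, but below every TGFβ library. The log2 fold change was 0.79 (SE 0.12, adjusted p = 0.00166), and it ran from 0.71 to 0.96 over the other fits. *Asns*, asparagine synthetase, was at 208, 196 and 185 CPM with vehicle and 279, 300.2 and 300.2 CPM with TGFβ, a 1.49-fold change (log2 fold change 0.58, SE 0.06, adjusted p = 1.97e-04).

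*Atf4* mRNA itself rose by less. It was measured at 283, 285 and 262 CPM with vehicle and 325, 324 and 322 CPM with TGFβ, a log2 fold change of 0.23 (SE 0.05, adjusted p = 0.00558). ATF4 is controlled mainly at translation, which these libraries do not show. *Trib3*, a pseudokinase that dampens ATF4 activity, had 74.4, 77.9 and 71.9 CPM and 86.2, 94.6 and 88.9 CPM, with a log2 fold change of 0.27 (SE 0.05, adjusted p = 0.00408).

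The other 5 genes of the arm were not called. *Ddit3*, which encodes CHOP, was at 60.2, 61.7 and 54.6 CPM with vehicle and 55.8, 56.1 and 50.02 CPM with TGFβ, overlapping groups with a log2 fold change of -0.13 (confidence interval -0.27 to 0.02, adjusted p = 0.161). *Ddit3* shares 68 exon bases with *Mars* on the other strand, which held 208% as many counts and was called higher, so its value is uncertain if strand was not used in counting. *Atf3*, a stress-induced repressor, was scarce, with 126 to 173 counts with vehicle and 121 to 180 with TGFβ and a wide interval of -0.33 to 0.46. *Ppp1r15a*, for GADD34, which reverses the phosphorylation of eIF2α, stood at 69.4, 62.0 and 63.3 CPM and at 70.7, 66.0 and 65.1 CPM (log2 fold change 0.05, confidence interval -0.08 to 0.18). *Sesn2*, a stress-induced brake on mTORC1, stood at 77.9, 71.0 and 64.6 CPM and at 81.2, 75.7 and 68.2 CPM, a spread within each group wider than the difference between them (log2 fold change 0.08, confidence interval -0.12 to 0.27).

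*Atf5*, a relative of ATF4 that acts in the mitochondrial stress response, was the most abundant of the arm per kb of exon (330 CPM per kb with vehicle, beside 117 for *Atf4*). It had 657, 697 and 618 CPM with vehicle and 584, 630.0 and 594 CPM with TGFβ, with overlapping groups and a log2 fold change of -0.12 (confidence interval -0.26 to 0.01, adjusted p = 0.127). Without a scaling factor, *Atf5* and *Ddit3* were the genes called lower (log2 fold change -0.18 for both, adjusted p = 0.0358 and 0.0481 from edgeR). *Atf5* shares 82 exon bases with *Nup62* on the other strand, which held 6.30% as many counts.

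**Figure D4:**
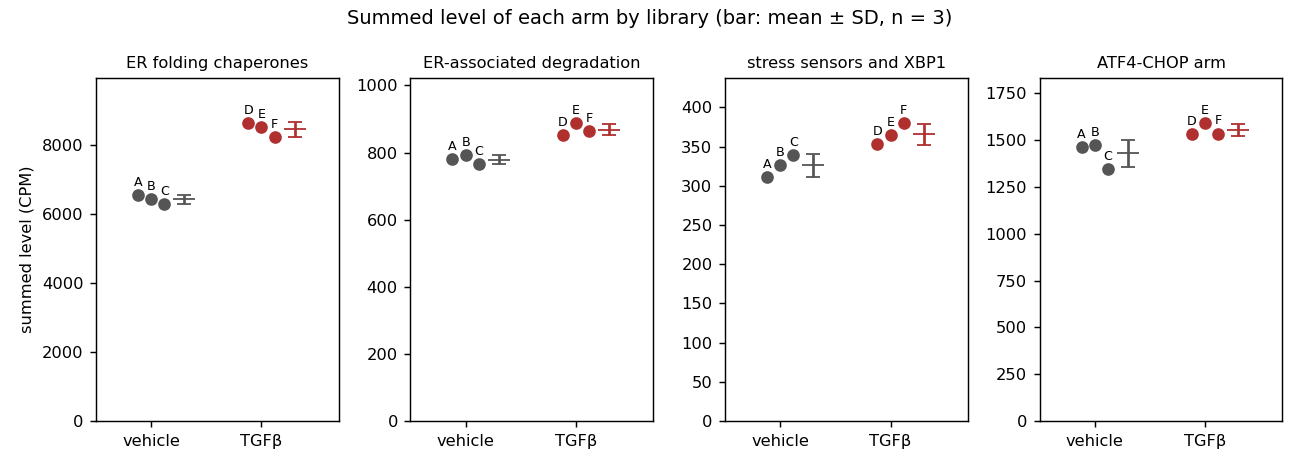
Summed CPM of the genes of each arm in each library, with vertical axes from 0 and the mean ± SD of 3 libraries beside the points. The folding chaperones moved from 6431 ± 130 to 8467 ± 216 CPM, and the ATF4-CHOP arm from 1429 ± 71.2 to 1553 ± 33.1 CPM.

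Genes of the same pathway outside the 33 were counted by list. Over all genes tested, 20.5% were called higher and 20.1% lower. These lists were also chosen with earlier results of these data known, so a share above those is not an independent result. Of 14 other disulfide enzymes, 10 were called higher and 0 lower, with the largest changes in *P4hb* (log2 fold change 0.57), the β subunit of collagen prolyl hydroxylase, *Pdia5* (0.41) and *Dnajc10* (0.35). Of 14 cofactors of BiP and translocon genes, 10 were called higher, among them *Ssr1* (log2 fold change 0.48), *Sec61g* (0.46) and *Sec61b* (0.41). The 1 called lower was *Sil1* (-0.29), an exchange factor of BiP like HYOU1, which was picked out after its value was seen. In the glycoprotein folding cycle 6 of 7 were called higher and 0 lower, led by *Lman1* (log2 fold change 0.49), a cargo receptor, *Uggt2* (0.38) and *Prkcsh* (0.36).

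Prolyl isomerases and the collagen chaperone held 5 genes called higher and 1 lower of 8. *Fkbp11* (log2 fold change 0.82), *Fkbp10* (0.78) and *Fkbp7* (0.56) changed most, and *Fkbp10*, which acts on collagen, went from 349 ± 12.8 to 599 ± 2.08 CPM (SD, n = 3 each). *Fkbp2* was the gene called lower (log2 fold change -0.22, picked out after its value was seen), a call that 10 of 13 other fits made. *Serpinh1*, the collagen chaperone, also picked out afterwards, did not pass (log2 fold change 0.20, confidence interval 0.04 to 0.36, adjusted p = 0.0535 from edgeR), although its groups did not overlap and 4 of 13 other fits called it. Of 13 other genes of ER-associated degradation, 6 were called higher, including *Selenos* (log2 fold change 0.28) and *Ube2g2* (0.27), and 1 lower, *Herpud2* (-0.16, likewise picked out afterwards).

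Among 13 other regulators of ER stress, 5 were called higher and 1 lower. *Creb3l2*, a membrane-bound factor related to ATF6 that promotes secretory capacity, had the largest rise, from 172, 172 and 192 CPM with vehicle to 382, 358 and 413 CPM with TGFβ (log2 fold change 1.10, SE 0.07, adjusted p = 2.67e-05). *Eif2s1*, for eIF2α, rose by 0.49 on the log2 scale. *Eif2ak2*, the eIF2α kinase PKR, was called lower (log2 fold change -0.33), a call made in 10 of 13 other fits and lost without library B (adjusted p = 0.111 from edgeR). With library totals and no scaling factor, this list had 4 called higher and 4 lower.

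Of 20 other ATF4 targets, 16 were called higher and 1 lower, with 0.50 as the median log2 fold change. *Fgf21*, a secreted hormone of metabolic stress, went from 4, 9 and 11 counts with vehicle to 118, 109 and 203 with TGFβ. It remained scarce, at 0.266 ± 0.126 CPM and 5.11 ± 1.75 CPM (SD, n = 3 each), and the log2 fold change was 4.26 (SE 0.38, adjusted p = 1.33e-04). *Cth*, of cysteine synthesis, was at 6.72, 3.94 and 7.17 CPM and at 16.4, 12.9 and 23.2 CPM (log2 fold change 1.55, adjusted p = 0.00282). *Nupr1*, a stress-induced chromatin protein, was at 72.0, 66.7 and 77.8 CPM and at 166, 143 and 194 CPM (log2 fold change 1.22, adjusted p = 1.34e-04). In each of these 3 genes library F was the highest, and the groups were apart. *Cebpb*, a partner of ATF4, was the gene called lower (210 to 101 CPM, log2 fold change -1.06, picked out after its value was seen).

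A further list held 12 aminoacyl-tRNA synthetases chosen as genes under ATF4, not the whole enzyme family. All 12 were called higher (100%), with a median log2 fold change of 0.42. The largest changes were those of *Lars* (0.61), *Gars* (0.54) and *Iars* (0.53). The fit with the fewest calls in this list had 11. With library totals and no scaling factor, genes called higher and lower numbered 7 and 0 among the other disulfide enzymes, 9 and 2 among cofactors of BiP and translocon genes, 15 and 2 among the other ATF4 targets, 6 and 1 in the glycoprotein folding cycle, 5 and 2 among prolyl isomerases, 5 and 2 among other genes of ER-associated degradation, 3 and 2 among the cytosolic heat shock genes and 4 and 0 among the mitochondrial ones.

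Chaperones of other compartments were set beside those of the ER. Of 12 cytosolic heat shock genes, 5 were called higher and 2 lower, with a median log2 fold change of 0.13. *Hspa4* (log2 fold change 0.46) and *Bag3* (0.24) rose. *Hspa1a*, a gene for the inducible HSP70, was called lower (-0.34, a call made in 8 of 13 other fits). *Hspa1b*, another gene for it and picked out after its value was seen, was not called (log2 fold change -0.13, adjusted p = 0.599 from edgeR). With vehicle, *Hspa1b* stood at 19.6 CPM and *Hspa1a* at 6.87 CPM. Sequence shared by this pair was not examined, so how reads were divided between them is not known. *Dnaja1* was the other gene called lower (-0.17, 9 of 13 fits, picked out after its value was seen). Of the 7 calls in this list 3 were left without library B or without library E, all higher. Of 9 mitochondrial chaperones and proteases, 5 were called higher and 0 lower, with a median of 0.25, led by *Hspd1* (log2 fold change 0.45), *Lonp1* (0.41) and *Hspa9* (0.28).

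**Figure D5:**
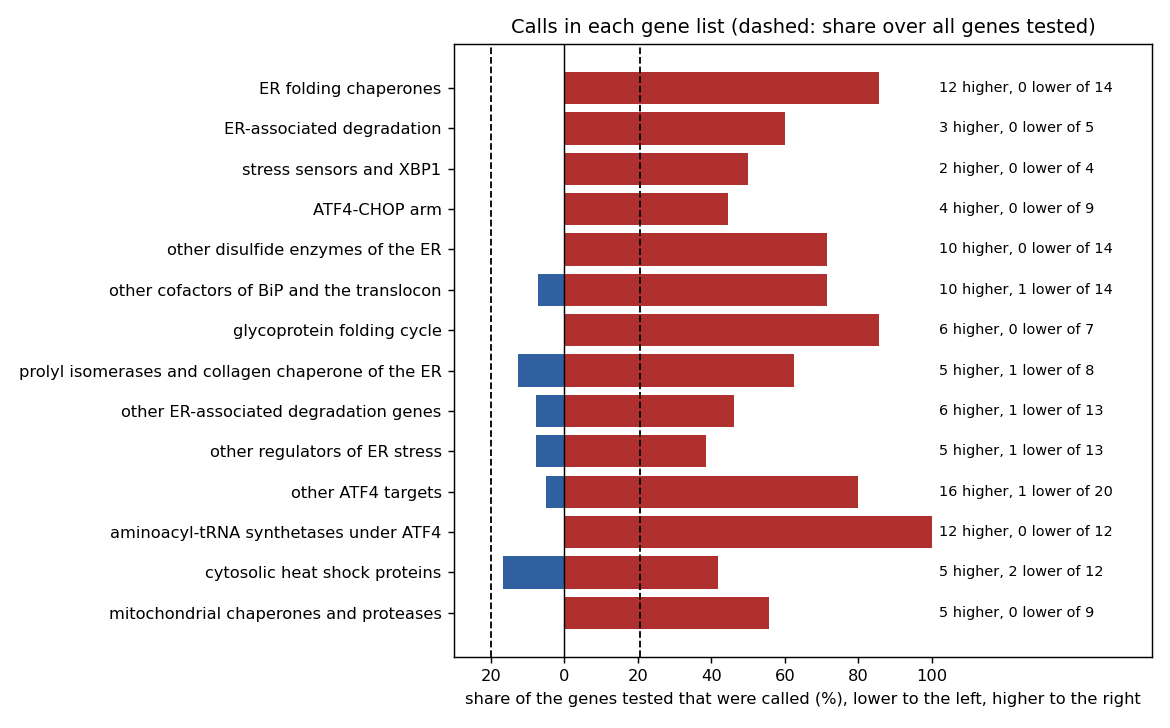
Share of the genes tested in each list that were called lower (blue, left) or higher (red, right) with TGFβ, in percent, with the counts at the right and dashed lines at 20.1% and 20.5%, the shares over all 14334 genes tested. The folding chaperones reach 85.7% and the 12 listed tRNA synthetases under ATF4 100%, while the ATF4-CHOP arm stands at 44.4%. The lists were chosen with earlier results of these data known, so shares beyond the lines are not independent results.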

How the data were processed

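RNA-seq was analysed from 3 vehicle and 3 TGFβ libraries, grouped by their titles. Per the paper's methods, the authors prepared stranded poly(A) libraries, read single ends of 75 bases and used DESeq2, and the labels name mm10. The aligner, the counting tool, the annotation and the use of strand are not given in the sources used here. The deposited table holds counts per gene and library without normalization; the authors' mean, log2 fold change, standard error, statistic, p-value and adjusted p in it were not used.

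Counts were compared with edgeR 4.0.16 in R 4.3.3 (TMM factors, filterByExpr on the group, quasi-likelihood test, Benjamini-Hochberg adjustment over the 14334 genes kept, no covariate). The standard error is the log2 fold change over the square root of F, and intervals cover 95%. The biological coefficient of variation was 7.97%. The paper's methods call the libraries biological replicates but do not say whether they are separate isolations, so p-values measure the spread between these libraries. Depth limits *Derl3* and *Atf3*. The procedure was also run on simulated counts that gave all genes the same biological coefficient of variation. Genes differ in spread here, so that run does not measure the error rate in these data.

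The genes, arms and lists were chosen with earlier results of these data known. All 33 genes are named, and of each other list the 3 called genes with the largest absolute log2 fold change, other names being marked; 1 gene under this rule is not reported here. Positions and exon lengths come from GENCODE M21 (GRCm38), to which 25086 of the table's genes and all 33 matched. Shared windows, examined for the 33 genes only, were at most 4.16% of the 75-base windows of a gene's longest transcript. Among the 13 other fits were DESeq2's size factors, upper quartile scaling, DESeq2 1.42.0, limma-voom 3.58.1, no filter and 1 CPM in 3 libraries. The rest were each of 6 libraries left out, and library totals alone, summed over the genes kept.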

Additional observations from a re-analysis of the deposited data

How the results depend on the processing

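Library totals without a scaling factor were added as an alternative after the data were seen. The number of the 33 genes called, 21, was 20 with DESeq2, 19 at an adjusted p under 0.01 and 19 to 22 with a library left out. With library totals it was 19 higher and 2 lower. A log2 fold change of at least 0.5 left 3 of them, 1 folding chaperone, 0 genes of ER-associated degradation, 0 of the sensors and XBP1 and 2 of the ATF4-CHOP arm, since that limit is stricter. Of the sensors and XBP1, 2 were called, and 1 with DESeq2, with library totals and at an adjusted p under 0.01; leaving out a library gave 1 (A or E) to 2. With library totals the log2 fold change turned to -0.029 for *Sdf2l1*, -0.0031 for *Derl1* and -0.0015 for *Ppp1r15a*, and the median of all genes moved to -0.05. Leaving out a library took *Atf3* from -0.072 (without F) to 0.198 (without E), and to -0.05 without B. None of these reversals involved a called gene; the cause was not tested.

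No paired analysis was possible because the columns of counts carry no replicate number.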

Other observations

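Among the genes tested, the coefficient of variation over the vehicle libraries was highest for *Chac1* (18.9%), *Atf3* (15.5%) and *Sesn2* (9.35%), and over the TGFβ libraries for *Atf3* (18.5%) and *Sesn2* (8.72%). It was below 5% for each of the 14 folding chaperones with vehicle, the lowest being *Pdia6* (0.684%). *Calr* was lowest in library C with vehicle and in library F with TGFβ, the libraries with the highest summed endothelial markers of their groups (626 and 512 CPM). *Hsp90b1*, *Pdia3*, *Pdia4*, *Canx*, *Dnajb11* and the summed folding chaperones (6300 and 8225 CPM) were lowest in the same libraries. The other folding chaperones were lowest in library B with vehicle. With TGFβ, *Hspa5* and *Hyou1* among them were lowest in library F, and the rest in library D or E. A relation to the endothelial markers was not tested.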
